A study of Canis lupus familiaris with 14 samples.

Results

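The genes described here encode the proteasome. They were chosen by name, as every gene of the canine array whose single annotated symbol is PSMA, PSMB, PSMC, PSMD or PSME followed by a number, which gave 38 of 15115 genes, read by 75 probe sets. The proteasome degrades proteins marked with ubiquitin. Its barrel, the 20S core, is built of alpha rings (PSMA genes) and beta rings (PSMB genes), and 3 kinds of beta subunit, PSMB5, PSMB6 and PSMB7, cut the protein chain. In lymphoid tissue and under interferon-gamma these are replaced by PSMB8, PSMB9 and PSMB10, which form the immunoproteasome and change the peptides that are offered on MHC class I. The 19S cap binds, unfolds and feeds in the substrate, with PSMC genes for its ATPases and PSMD genes for the other subunits, and the 11S activator (PSME1, PSME2 and PSME3) opens the core without ATP.

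Fine needle aspirates of lymph nodes were profiled on the GeneChip Canine Genome V2.0 Array, and the values are log2 of the MAS5 signal, averaged per gene over its probe sets. Of 10 companion dogs with lymphoma, 7 were labelled B-cell (FS21, NE41, NE42, RB03, RB07, RB10, RB16) and 3 T-cell (FS22, FS25, NE45). The aspirates were taken before an investigational PI3K inhibitor was given, and FS21, RB07, FS22 and FS25 were relapsed cases with earlier chemotherapy. The 4 normal nodes came from 3 Beagles of a colony, and 3024l and 3024r are nodes of the same dog, so their mean was used as 1 value. Colony and clinic cannot be told apart from the disease. FS22 was a Beagle like the normal dogs, but 1 dog cannot separate breed from the disease. The arrays were run in batches, and which array belonged to which batch is not given in the sources used here.

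The study's clustering placed the lymphomas in a class E-J (FS21, NE41, NE42, RB03, RB16 and FS22) and a class K-N (RB07, RB10, FS25 and NE45). That clustering was made on these expression profiles, so the class differences below are descriptions without a test. RB07 and RB10 carry the label B-cell but lie with the lymphomas of high T-cell marker signal, where the summed signal of 13 T-cell markers ran from 61021 to 85587 against 3543 to 16800 in class E-J. FS22 carries the label T-cell but lies in class E-J, where the summed signal of 10 B-cell markers ran from 15652 to 34247 against 417 to 3043 in class K-N. Array 3024l stands apart. Its ratio of the 3' to the 5' GAPDH control probe set was 23.2, against 3.30 to 8.94 on the other 13 arrays. The mean log2 signal of the proteasome genes was 10.13 on 3024l and lay between 10.64 and 11.09 on the others. Where this node moved a difference between lymphoma and normal by more than 1.5 times, the difference with 3024r alone for that dog is given as well.

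Of the 38 genes, 36 reached a signal of 100 on at least 3 arrays and were tested: 13 of the 20S core, 3 of the immunoproteasome, 16 of the 19S cap, 3 of the 11S activator and PSME4, which encodes the separate activator PA200. The 2 that did not were PSMA8, a core subunit of the testis, and PSMB11, the subunit of the thymus proteasome, each below 100 on all 14 arrays. No probe set carries the symbol PSMB7, PSMC1 or PSMD1 alone, and PSMD4 and PSMD5 appear only on probe sets shared with other symbols. In bulk aspirates, a difference in the number of cells of a type and a difference in RNA per cell cannot be told apart.

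**Figure D1:**
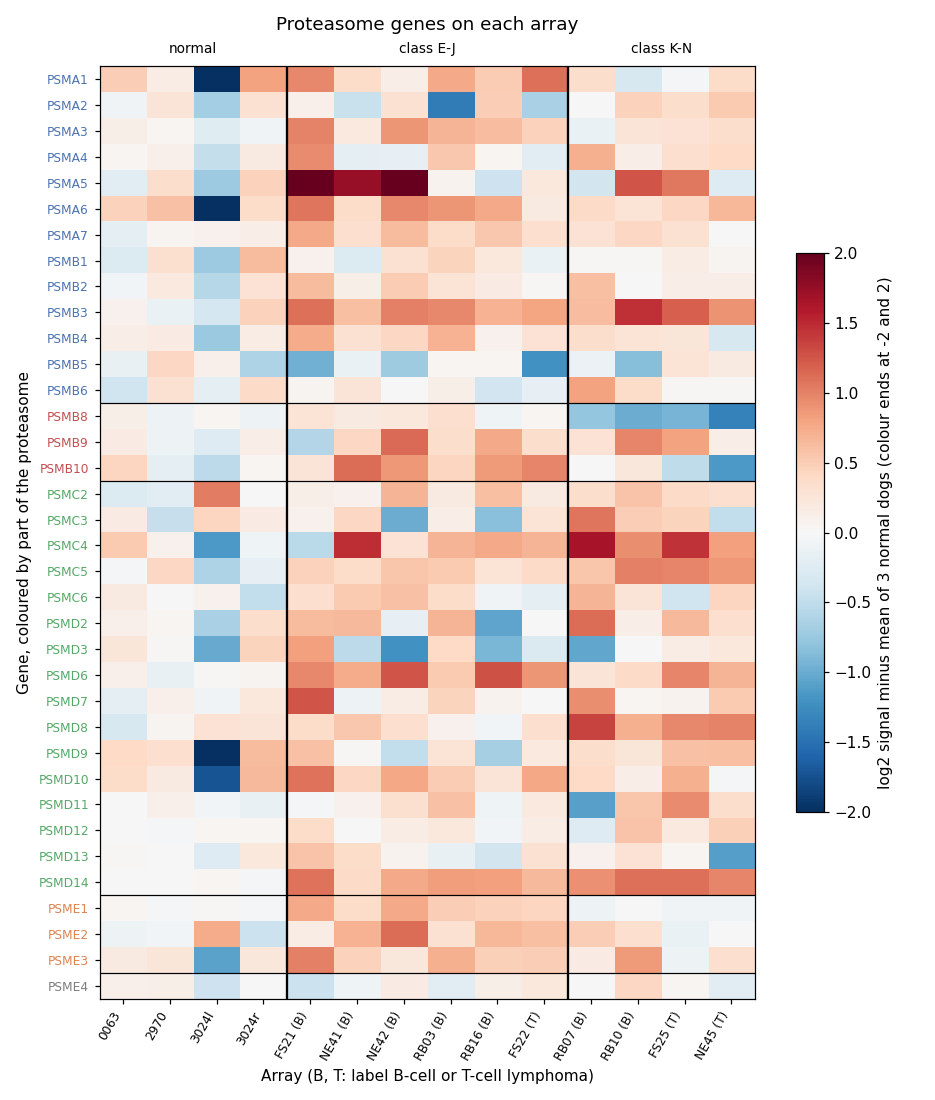
Log2 signal of the 36 tested proteasome genes (rows, coloured by part of the proteasome) on each of the 14 arrays (columns), as the difference from the mean of the 3 normal dogs. PSMB3 and PSMD14 are above the normal mean on all 10 lymphoma arrays, PSMB8 is below it on the 4 arrays of class K-N, and PSMA1, PSMA6, PSMD9 and PSMD10 are low on 3024l.

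Most proteasome genes had a higher mean in lymphoma than in normal nodes, but few passed the test. In 10 lymphomas against 3 normal dogs, PSMB3 and PSMD14 rose and none of the 36 fell (limma, adjusted p under 0.05), while 1.03% of the 9400 genes tested rose and 2.60% fell. At an unadjusted p under 0.05 from limma, 4 of the 36 were higher and 0 lower (8.24% and 10.4% of all genes). The methods' t-test, which lets the variances of the groups differ, called after Benjamini-Hochberg adjustment 3 higher and 0 lower (3.01% and 6.49% of all genes). The difference was above 0 for 31 of the 36, against 48.0% of all genes, with a median of 0.31 against -0.03. With 3024r alone it was above 0 for 27, against 42.7% of all genes, and the median was 0.19 against -0.13. By part of the proteasome the median log2 difference was 0.31 in the 20S core, 0.31 in the immunoproteasome, 0.32 in the 19S cap and 0.42 in the 11S activator. The median of the 20S core was 0.12 with 3024r alone and 0.15 after quantile normalization, and that of the immunoproteasome was 0.47 without NE45 and 0.53 without 0063.

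**Figure D2:**
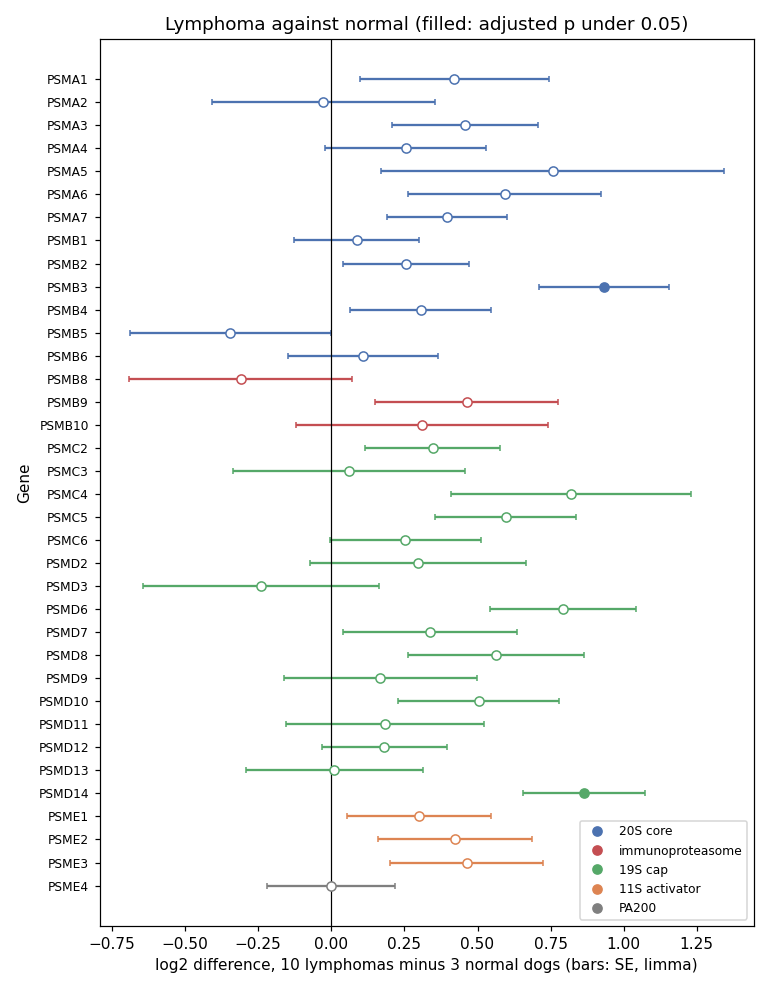
Difference in log2 signal between 10 lymphomas and 3 normal dogs (horizontal axis) for each of the 36 tested genes, with the standard error from limma as bars and filled points for an adjusted p under 0.05. PSMB3, at 0.93, and PSMD14, at 0.87, are the filled points, and 31 of the 36 points lie above 0.

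Among the beta subunits of the core, PSMB3, a structural subunit without catalytic activity, had log2 signals of 10.77 in normal node 0063, 10.56 in 2970, 10.34 in 3024l and 11.16 in 3024r. In the 10 lymphomas it ran from 11.30 through a median of 11.62 to 12.16. Every lymphoma therefore lay above every normal node, with 3024r the nearest. The log2 difference was 0.93, or 1.91-fold (standard error, SE, 0.22, n = 10 and 3, adjusted p = 0.0400 from limma). The means of its 3 probe sets rose by 0.81, 1.04 and 0.95, and 1 of them overlapped between the groups. With 3024r alone the difference was 0.80 (adjusted p = 0.0655 from limma). The Beagle with lymphoma, FS22, had 11.49.

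The other beta subunits of the constitutive core gave smaller values that did not pass. PSMB4, a structural subunit, had a mean log2 signal of 13.48 ± 0.30 (SD) over the 10 lymphomas and 13.18 ± 0.26 over the 3 normal dogs (adjusted p = 0.532 from limma). PSMB2, also structural, had 12.50 ± 0.24 and 12.24 ± 0.17 (adjusted p = 0.561 from limma). PSMB6, which carries the caspase-like activity, had 10.67 ± 0.32 and 10.56 ± 0.36 (adjusted p = 0.865 from limma). With 3024r alone the log2 differences of PSMB4, PSMB2 and PSMB6, 0.31, 0.26 and 0.11 as tested, were 0.16, 0.11 and 0.014. PSMB5, which carries the chymotrypsin-like activity and is the main target of bortezomib, had the lowest difference of the 36, at -0.35 (SE 0.35, adjusted p = 0.638 from limma). That value comes from a dim probe set, which reached 100 on 1 array and differed by -1.08, while the other 2 probe sets of PSMB5 differed by 0.01 and 0.04. The value of the gene was -0.23 with 3024r alone and -0.14 without 2970.

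Of the 7 tested alpha subunits, which form the outer rings and the gate of the core, none passed. PSMA7 had the smallest p among them, with 13.40 in 0063, 13.64 in 2970, 13.66 in 3024l and 13.71 in 3024r against a lowest, median and highest log2 signal of 13.57, 13.93 and 14.33 in lymphoma. The groups overlapped, and the means were 0.40 apart on the log2 scale (SE 0.21, adjusted p = 0.320 from limma). PSMA3 differed by 0.46 (SE 0.25, adjusted p = 0.353 from limma). PSMA6 differed by 0.59, but its log2 signal was 9.34 in 3024l and between 12.15 and 12.37 in the other normal nodes, and with 3024r alone the difference was 0.12. PSMA5 showed a wide spread, with an SD of 1.03 over the 10 lymphomas against 0.31 over the normal dogs. One of its 3 probe sets was dim and varied from 1.27 to 8.58 on the log2 scale in lymphoma. The bright pair differed by 0.89 and 0.66, and PSMA5 passed with the brightest probe set alone (adjusted p = 0.0480) and with the mean of linear signals (adjusted p = 0.0453, both limma).

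In the lid of the 19S cap, PSMD14 encodes the enzyme that removes ubiquitin from the substrate as it enters. Its log2 signals were 11.26 in 0063, 11.29 in 2970, 11.31 in 3024l and 11.25 in 3024r. In lymphoma they ran from 11.66 through a median of 12.16 to 12.39, so no lymphoma overlapped the normal nodes, which themselves lay within a narrow range. The log2 difference was 0.87, or 1.82-fold (SE 0.21, n = 10 and 3, adjusted p = 0.0400 from limma), and its 2 probe sets differed by 1.04 and 0.69. With 3024r alone it was 0.88 (adjusted p = 0.0298 from limma), and with the brighter probe set alone 0.69 (adjusted p = 0.0891 from limma). FS22 had 11.93. PSMD6, another subunit of the lid, had 11.03, 10.78, 10.95 and 10.98 in the same order of normal nodes, and 11.18, 11.74 and 12.19 as the lowest, median and highest value in lymphoma. No array overlapped here either, although the difference of 0.79 missed the threshold (SE 0.25, adjusted p = 0.0988 from limma; 0.00721 by the methods' t-test).

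The calls of PSMB3 and PSMD14 lay close to the threshold. Both were lost without NE42, FS21, RB16, NE45, FS25, 0063 or 2970, and 1 of them was lost without RB10, FS22, 3024l or 3024r. The log2 difference stayed between 0.80 and 1.07 for PSMB3 and between 0.84 and 0.92 for PSMD14 when an array was left out.

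**Figure D3:**
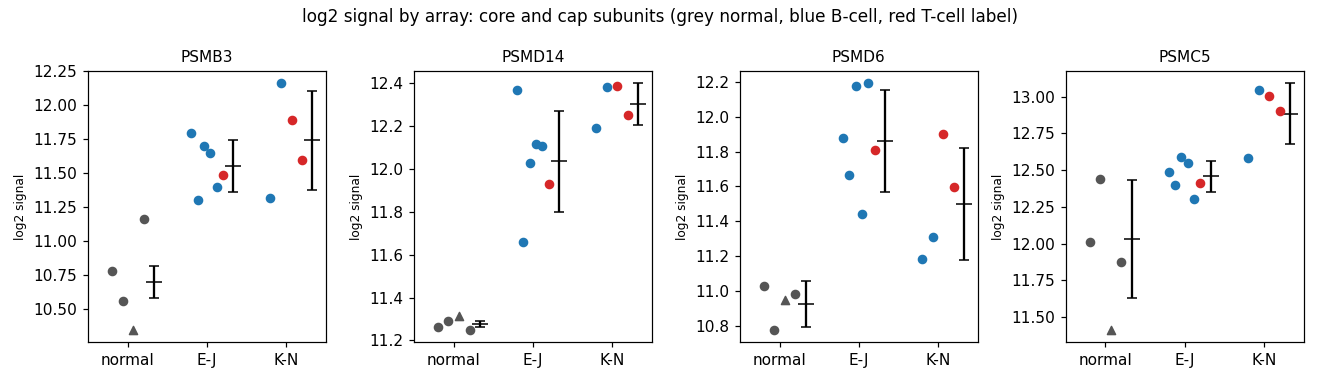
Log2 signal of PSMB3, PSMD14, PSMD6 and PSMC5 on each array (points; grey for normal, blue for the label B-cell, red for T-cell, triangle for 3024l) by class, with the mean and SD of 3 normal dogs, 6 lymphomas of class E-J and 4 of class K-N beside them. All 10 lymphomas lie above the 4 normal nodes for PSMB3, PSMD14 and PSMD6, and for PSMC5 all 4 arrays of class K-N do, from 12.59 to 13.04, but not all of class E-J, from 12.30 to 12.59.

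The ATPases of the cap, which form the ring that pulls the substrate into the core, did not pass. PSMC5 had 12.01 in 0063, 12.44 in 2970, 11.41 in 3024l and 11.87 in 3024r against 12.30 to 13.04 in lymphoma (median 12.57), which differ by 0.60 on the log2 scale (SE 0.24, adjusted p = 0.196 from limma). PSMC4 differed by 0.82 (SE 0.41, adjusted p = 0.304 from limma), and its 3 probe sets gave 1.22, 0.43 and 0.82, the first of them at 100 or more on only 4 arrays. PSMC2 differed by 0.35 and PSMD8, a lid subunit, by 0.56 (adjusted p = 0.446 and 0.338 from limma). The difference of PSMC2 was 0.52 with 3024r alone, 0.18 without 3024r and 0.21 without 0063. PSMD3, a lid subunit as well, was 1 of the 5 genes below 0, at -0.24 (adjusted p = 0.801 from limma), and had -0.48 with 3024r alone.

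Several genes were read differently by their own probe sets. Of the 36 tested genes, 13 had a single probe set and 23 had more than 1 with a signal of 100 on at least 3 arrays. In 7 of these 23 the probe sets lay on both sides of 0 in lymphoma against normal, namely PSMA2, PSMB8, PSMD7, PSMD9, PSMD10, PSMD13 and PSME4. PSMD10, also known as gankyrin, which helps to assemble the base of the cap, had a brightest probe set at -0.16 and a gene value of 0.50. Its log2 signal was 6.60 in 3024l, the lowest of the 14 arrays, and up to 8.96 in the other normal nodes, and the gene value was 0.11 with 3024r alone and 0.90 without 3024r. PSMD9, another assembly factor of the base, had probe sets at 0.66, -0.53 and 0.38 and a gene value of 0.17, or -0.29 with 3024r alone. PSMD7, a lid subunit, had -0.01 and 0.69, and PSMD13 had 0.03 and -0.01. For PSMA2 the bright probe set gave 0.29 and the dim one -0.34, and for PSME4 the 3 gave -0.13, 0.22 and -0.10.

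When the 7 lymphomas labelled B-cell were set against the 3 normal dogs, none of the 36 genes passed in either direction (limma, adjusted p under 0.05), with 0.298% of all genes higher and 1.47% lower. At an unadjusted p under 0.05, 3 were higher and 0 lower (7.91% and 10.5% of all genes), and the methods' t-test called 3 higher and 0 lower after adjustment (1.44% and 3.10%). These were PSMD14, with a log2 difference of 0.84 (limma adjusted p = 0.0905), PSMB3, with 0.92 (limma adjusted p = 0.0930), and PSMD6, with 0.77 (limma adjusted p = 0.194). The count by limma was also 0 without RB07 and RB10. Between B-cell and T-cell labels, with 7 and 3 arrays, none of the 36 passed by limma at an adjusted or an unadjusted p under 0.05 or by the methods' t-test. After adjustment 0% of all genes passed, and without it 2.43% were higher and 1.34% lower by limma. The differences ran from -0.45 to 0.77 on the log2 scale, the highest being PSMB10 (SE 0.44, adjusted p = 0.961 from limma).

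Compared by the median of each part, the 2 lymphoma classes differed most in the immunoproteasome (1.10 on the log2 scale over 3 genes). This median rested on PSMB8 and PSMB10, while PSMB9 differed by -0.15. PSMB8, the subunit that takes the place of PSMB5, had log2 signals of 10.38 in RB07, 10.17 in RB10, 10.22 in FS25 and 9.80 in NE45. In class E-J it ran from 11.07 through a median of 11.36 to 11.50, and the normal nodes had 11.28 (0063), 11.06 (2970), 11.20 (3024l) and 11.07 (3024r). The 4 arrays of class K-N thus lay below all others, while class E-J overlapped the normal nodes. Class E-J was 2.26-fold above class K-N (log2 difference 1.18), and class K-N was 2.02-fold below normal (-1.02). The gap between the classes appeared in both probe sets of PSMB8, at 0.98 in the bright and 1.37 in the dim one. The gap to the normal nodes did not hold to the same degree. It was -1.54 without overlap in the dim probe set and -0.49 with overlap in the bright one.

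PSMB10, which takes the place of PSMB7, had 10.95 in RB07, 11.16 in RB10, 10.42 in FS25 and 9.78 in NE45. Class E-J ran from 11.19 through a median of 11.79 to 12.05, and the normal nodes from 10.40 to 11.36. The classes did not overlap, with a log2 difference of 1.10 (2.15-fold), but FS21 and RB10 were only 0.03 apart. After quantile normalization, after centring each array on its median and with the brightest probe set alone, the classes overlapped for PSMB10, and both probe sets of the gene overlapped when taken singly. PSMB9, which takes the place of PSMB6, went otherwise. Its log2 signal was 12.84, 13.51, 13.35 and 12.67 in the 4 arrays of class K-N and 11.96 to 13.66 in class E-J, with a median of 12.92. The difference of the classes was -0.15 for PSMB9, and both class means were above the normal mean of 12.54 ± 0.14 (SD, n = 3), at 12.94 ± 0.57 and 13.09 ± 0.40.

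In the RefSeq gene table of assembly UU_Cfam_GSD_1.0, PSMB8 and PSMB9 are neighbours in the MHC region, in the order TAP2, PSMB8, TAP1 and PSMB9. TAP1 and TAP2 encode the transporter that carries proteasome products into the endoplasmic reticulum. Their differences between class E-J and class K-N were 0.21 and -0.55 on the log2 scale, with overlap in both. Of this row of genes only PSMB8 separated the classes.

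The pairs of an immune subunit and the constitutive subunit it replaces were also compared within each array. A difference of 2 log2 signals from different probe sets shows only unequal change, not which of the proteins is more abundant. PSMB8 minus PSMB5 averaged 2.43 ± 0.97 (SD) over the 10 lymphomas and 2.40 ± 0.44 over the 3 normal dogs, a difference of 0.04 (p = 0.937 by a two-sided exact permutation test over 286 assignments, smallest possible p = 0.00350, Benjamini-Hochberg adjusted 0.937 over 2 pairs). With 3024r alone that difference was -0.060. The lymphomas spread widely around that mean, with 3.05 ± 0.57 (SD, n = 6) in class E-J and 1.51 ± 0.61 (SD, n = 4) in class K-N. The dim probe set of PSMB5, at 100 on 1 array, enters these values and differed by -1.37 between class E-J and class K-N. The brighter probe sets of PSMB5 differed by 0.09 and 0.21. PSMB9 minus PSMB6 was 2.33 ± 0.61 and 1.98 ± 0.49, a difference of 0.35 (p = 0.371 by the same exact test, adjusted 0.741) that was 0.63 without 0063, 0.16 without 2970 and 0.18 after quantile normalization. Here the classes were close, at 2.41 ± 0.67 and 2.22 ± 0.58.

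Of the 11S activator, PSME1 and PSME2 form the interferon-inducible ring and PSME3 forms a ring of its own in the nucleus. PSME1 had log2 signals of 12.50 in RB07, 12.60 in RB10, 12.53 in FS25 and 12.54 in NE45, beside 12.65, 12.56, 12.63 and 12.56 in normal nodes 0063, 2970, 3024l and 3024r. Class E-J ran from 12.98 through 13.08 to 13.36, above all 8 of the other arrays. Class E-J was 1.52-fold above class K-N (log2 difference 0.61) and 1.46-fold above normal (0.54). In 3 of the 4 probe sets of PSME1 the classes did not overlap, but they overlapped after each array was centred on its median. Against the normal nodes class E-J did not overlap in the probe sets at 0.79 and 0.43 and overlapped in those at 0.57 and 0.38. PSME2 differed between the classes by 0.41 with overlap, at 10.97 ± 0.34 in class E-J, 10.55 ± 0.29 in class K-N and 10.38 ± 0.14 in normal dogs. PSME3 had 10.24 ± 0.27, 9.99 ± 0.40 and 9.68 ± 0.37. Its value of 8.60 in 3024l was the lowest of the 14 arrays. In lymphoma against normal PSME1 differed by 0.30, PSME2 by 0.42 and PSME3 by 0.46, and PSME4 of PA200 by -0.00246 (limma adjusted p = 0.550, 0.415, 0.369 and 0.997). With 3024r alone PSME2 differed by 0.62, PSME3 by 0.25 and PSME4 by -0.068, and without 3024r PSME2 differed by 0.23 and PSME3 by 0.68.

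**Figure D4:**
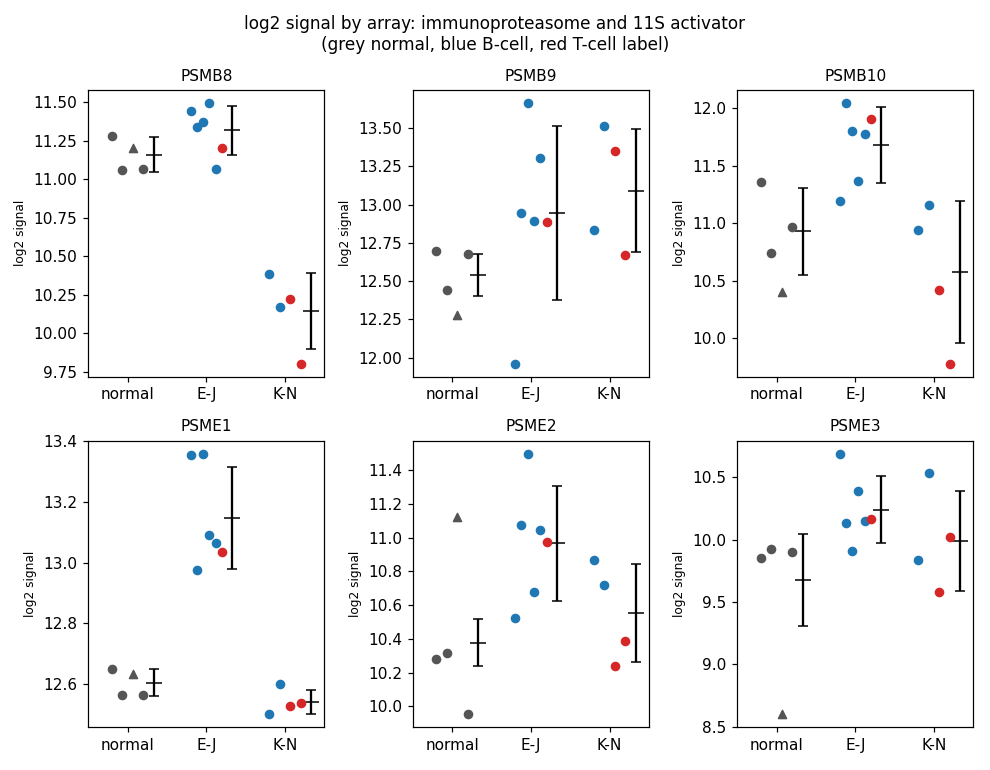
Log2 signal of the immunoproteasome subunits PSMB8, PSMB9 and PSMB10 and of the 11S activator genes PSME1, PSME2 and PSME3 on each array by class (points; grey normal, blue label B-cell, red label T-cell, triangle 3024l), with the mean and SD of 3 normal dogs, 6 lymphomas of class E-J and 4 of class K-N. Class K-N lies lowest for PSMB8, at 9.80 to 10.38, and class E-J highest for PSME1, at 12.98 to 13.36, while the classes overlap for PSMB9.

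Over all 36 genes, 6 did not overlap between class E-J and the 4 normal nodes and were higher (16.7%, against 7.26% of all genes), and 0 were lower (7.97% of all genes). They were PSMA3, PSMA7, PSMB3, PSMD6, PSMD14 and PSME1. In class K-N 6 were higher without overlap (16.7%, against 6.93% of all genes), namely PSMB3, PSMC4, PSMC5, PSMD6, PSMD8 and PSMD14, and 1, PSMB8, was lower (2.78%, against 9.12% of all genes). Taken singly, every probe set of PSMC4 and of PSMD8 overlapped between class K-N and the normal nodes. Between the classes 3 were higher in E-J (8.33%, against 6.26% of all genes), PSMB8, PSMB10 and PSME1, and 1 was lower, PSMD8 (2.78%, against 4.45% of all genes). These shares are near those of all genes. PSMD8 had 11.21 in RB07, 10.57 in RB10, 10.82 in FS25 and 10.84 in NE45 against 9.80 to 10.40 in class E-J, a log2 difference of -0.74. The classes did not overlap in its probe set at -0.89 and overlapped in that at -0.59. Without RB07 or NE45 the 6 genes of class K-N became 10, without RB10 the 1 lower gene became 2, and without RB07, NE42, NE41, FS21 or NE45 the 1 gene lower in E-J than in K-N became 2. Leaving out an array can only keep or raise such a count, and the share of all genes is not given for these settings. The 2 comparisons with normal share the same normal nodes.

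By part of the proteasome, the median difference between class E-J and class K-N was 1.10 on the log2 scale in the immunoproteasome (3 genes) and 0.41 in the 11S activator (3 genes). It was 0.08 in the 20S core (13 genes) and -0.11 in the 19S cap (16 genes), beside 0.05 over all 9400 genes. The value of the 20S core ran from 0.025 (without RB10) to 0.20 (without RB07), and that of the 19S cap from -0.31 (without FS21) to -0.074 (without NE41). Against normal, class E-J had medians of 0.42, 0.40, 0.26 and 0.56 in the 20S core, immunoproteasome, 19S cap and 11S activator, and class K-N had 0.25, -0.35, 0.40 and 0.18. The median of the 20S core in class E-J was 0.16 with 3024r alone and 0.16 after quantile normalization, and that of the immunoproteasome was 0.26 without NE42. In class K-N the median of the 11S activator changed sign to -0.018 without 3024r and was 0.097 with 3024r alone, 0.071 without RB07 and 0.28 without FS25. That of the immunoproteasome ran from -0.55 without RB10 to -0.087 without NE45, with -0.14 without 0063, and was -0.048 with the brightest probe set. That of the 20S core was 0.16 with 3024r alone and 0.40 without 3024r. Among the single genes of the core and cap, the difference between class E-J and class K-N ran from -0.74 (PSMD8), -0.65 (PSMC4) and -0.60 (PSMA2) to 0.54 (PSMA1) and 0.57 (PSMA5), all but PSMD8 with overlap. The largest rise in class E-J against normal was that of PSMA5 (0.98), and the largest in class K-N was that of PSMC4 (1.21), each with a dim probe set among its 3.

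**Figure D5:**
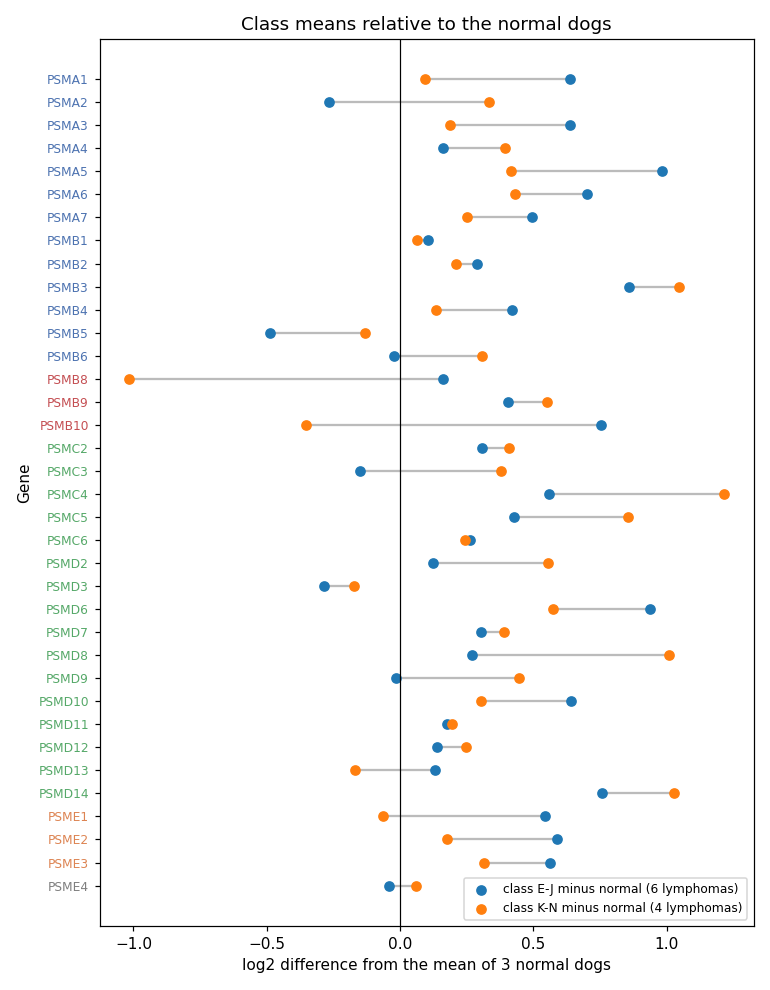
Difference in log2 signal from the mean of the 3 normal dogs for each of the 36 tested genes, with blue points for class E-J (6 lymphomas) and orange points for class K-N (4 lymphomas) joined by a line. The points lie farthest apart for PSMB8 (0.16 and -1.02) and PSMB10 (0.75 and -0.35), and for PSMB3 they lie together at 0.86 and 1.04.

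Genes related to the proteasome were read from lists chosen for their roles. Of 18 tested genes of proteasome assembly and cofactors, 0 rose and 0 fell in lymphoma against normal by limma, with a median log2 difference of 0.20. USP14, a ubiquitin protease bound to the cap, differed by 0.98 (adjusted p = 0.125), and PSMG1, a chaperone of the alpha ring, by 0.73 (adjusted p = 0.204). NFE2L1, the transcription factor that raises proteasome gene expression when the proteasome is blocked, differed by -1.67 (SE 0.68, adjusted p = 0.202). All 3 p-values are from limma, and the methods' t-test gave adjusted values of 0.0280, 0.0459 and 0.0315. Between the classes USP14 was higher in E-J without overlap (log2 difference 0.87).

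Of 11 tested genes of peptide loading and the interferon-gamma response, 0 rose and 0 fell by limma, with a median of -0.39 (-0.65 with 3024r alone). CALR, a chaperone of MHC class I loading, differed by -0.94 (adjusted p = 0.105 from limma and 0.0117 by the methods' t-test). CD74, the MHC class II invariant chain, differed by -0.88, and PDIA3, a partner of CALR, by -0.50 (adjusted p = 0.350 and 0.401 from limma). The summed signal of the 14 genes on the array was 53212 to 71897 in class E-J, 34849 to 50590 in class K-N and 57916 to 84882 in normal nodes, so the sum in class K-N lay below both. The brightest genes weigh most in such a sum, here B2M and CD74, with normal means of 14.92 and 14.15 on the log2 scale. The median log2 difference of the tested genes from normal was -0.35 in class E-J and -0.54 in class K-N.

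Other gene lists differed between the classes as well. In that contrast PSMB8, PSMB10 and PSME1 were higher in class E-J, while PSMB9 and PSME2 overlapped, at -0.15 and 0.41. The list of peptide loading and the interferon-gamma response had a median class difference of 0.29 with signals raised to at least 100. The summed signal of 19 interferon-stimulated genes was 15324 to 42488 in class E-J, 2801 to 7318 in class K-N and 5937 to 7971 in normal nodes, and the list had a median class difference of 1.80 on the log2 scale with signals raised to at least 100. IRF7, a regulator of interferon genes, was under 100 on all 4 arrays of class K-N and had signals of 169 to 492 in class E-J. OAS1, an antiviral enzyme, had 519 to 1389 in class E-J and 90.7 to 301 in class K-N. The classes did not overlap for either gene. IFIH1, a sensor of viral RNA, differed by 0.77 on the log2 scale with overlap. With signals raised to at least 100 the median class difference was 3.05 for B-cell markers and -2.82 for T-cell markers. In class K-N the B-cell markers PAX5, BLK and FCRLA were under 100 on all 4 arrays, but PAX5 and BLK were so on all 4 normal nodes as well. In class E-J the T-cell markers CD5 and CD6 were under 100 on all 6 arrays. In lymphoma against normal, 0 of 19 interferon-stimulated genes, 0 of 13 T-cell and 0 of 9 B-cell markers passed in either direction by limma. The part of these cell types and of interferon in the proteasome values was not tested.

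Proliferation genes and markers of other cell types moved in lymphoma against normal, the comparison in which PSMB3 and PSMD14 rose. Of 17 proliferation genes, 4 rose and 0 fell by limma (BUB1B, TPX2, TOP2A and CDK1). By the methods' t-test BUB1B and TOP2A did not pass (adjusted p = 0.233 and 0.0527), and TPX2 and CDK1 did (0.00670 and 0.00609). That test also passed AURKA, AURKB, MCM4, PCNA and CCNA2 (adjusted p of 0.0144 to 0.0435). The median log2 difference of the list was 1.18. Its summed signal was 15010 to 35088 in class E-J and 30289 to 43835 in class K-N against 11762 to 15963 in normal nodes. Of the tested markers 9 of 12 myeloid, 3 of 6 stromal and 2 of 5 endothelial genes fell by limma. ALAS2, the 1 tested marker of red cells, was under 100 on all 4 normal nodes and rose (adjusted p = 0.0486 from limma), but did not pass with 3024r alone (adjusted p = 0.134 from limma) or by the methods' t-test (adjusted p = 0.244). The summed signal of the 8 stromal genes was 5524 to 7333 in normal nodes and 464 to 4862 in lymphoma. That of the 8 endothelial genes was 7340 to 11727 in normal nodes and 1000 to 3632 in lymphoma, and CDH5, TEK and CLDN5 were under 100 on all arrays of every group. That of the 12 myeloid genes was 33964 to 81441 in normal nodes and 8586 to 42497 in lymphoma. Their part in the rise of PSMB3 and PSMD14 was not tested.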

How the data were processed

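RNA of the aspirates was amplified with WT-Ovation Pico by the authors, and the deposited values are linear intensity per probe set, made with MAS5 per the submitters' processing notes (version not given in the sources used here) and scaled by the authors to a trimmed mean of 500 on each array. Gene names are those of the platform annotation. Of 43035 probe sets, 29254 with exactly 1 symbol were taken to log2 and averaged into 15115 genes without further scaling, and 9400 genes with a signal of at least 100 on at least 3 of 14 arrays were tested. The test was that of limma (version 3.58.1, R 4.3.3) by lmFit and eBayes, with Benjamini-Hochberg adjustment over the 9400 genes and a threshold of 0.05, on 1 value per dog, after a test on simulated data. Groups are those of the labels, and classes those in the legend of the study's clustering. "Overlap" compares the lowest and highest arrays, with all 4 normal nodes.

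The genes named are the catalytic, immune and activator subunits, the 3 smallest p-values per family, every call, the 2 largest rises and falls per class comparison, members whose probe sets differ in sign, and the 3 smallest p-values in the lists of assembly, peptide loading, interferon, proliferation and blood. TAP1, TAP2, B2M, CDK1, AURKA, AURKB, MCM4, PCNA, CCNA2, PSMA1, PSMC6 and the markers under 100 were named after their values were seen. The members and lists were chosen with earlier results of these data known. Each value is a different dog, so p-values measure the spread between dogs, and the number of arrays limits the precision. Alternatives were the filter, scaling, pseudocount of 50, floor of 100, gene summary, choice of node, test and each array left out. The marker lists with signals raised to at least 100 or with 3024r alone were added after seeing the data.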

Additional observations from a re-analysis of the deposited data

Results flagged for a closer look

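Among 56 groups of values (28 named genes in the 4 normal nodes and in the 7 lymphomas labelled B-cell), 5 held an array far from the others by Dixon's ratio, and chance alone gives about 1 in 20. In 4 of the 5 that array was normal node 3024l, with the lowest log2 signal of PSME3 (8.60, the next node being 9.85), PSMA6 (9.34 against 12.15), PSMB4 (12.43 against 13.32) and PSMD9 (5.08 against 7.51). The GAPDH ratio of this array was 23.2, and its part in these values was not tested. The last was the highest B-cell value of PSMC5, 13.04 in RB10, with 12.59 next, on an array that lies in class K-N despite its label.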

How the results depend on the processing

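The 2 rises in lymphoma against normal (PSMB3 and PSMD14) became 0 without the filter and 0 with arrays centred on the median, and 1 with 3024r or 3024l alone. With the brightest probe set PSMB3 and PSMA5 passed and PSMD14 did not (adjusted p = 0.0891 from limma). They ranged from 0 to 2 with an array left out. The adjusted p from limma or the methods' t-test ranged over all alternatives from 0.00291 to 0.205 for PSMB3 and from 7.47e-04 to 0.188 for PSMD14. PSMD6 passed with a floor of 100 on the signal (adjusted p = 0.0283). In B-cell lymphoma against normal the 0 rises became 2 after 50 was added to each signal and 2 with a floor of 100. They became 3 with the methods' t-test (1.44% of all genes) and 1 in the study's B-cell set. For the other alternative settings the share of all genes called is not given, here or in lymphoma against normal. Those counts therefore cannot show whether the proteasome genes differ from all genes. The genes without overlap that were lower in class K-N than in normal nodes numbered 0 with the mean of linear signals and 0 with the brightest probe set, and 1 to 2 with an array left out (2 without RB10). Those higher ran from 6 to 10 (10 without RB07 or NE45), and those lower in E-J than in K-N from 1 to 2 (2 without RB07, NE42, NE41, FS21 or NE45). Those higher in E-J than in K-N fell to 1, PSMB8, with arrays centred on the median. Leaving out an array can only keep or raise a count of genes without overlap, so those ranges could not have shown a loss. The share of all genes without overlap is not given for these settings.

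The median of the 20S core in E-J against normal was 0.16 after quantile normalization and 0.16 with 3024r alone (0.16 to 0.50 with an array left out). That of the 11S activator was 0.67 with arrays centred on the median. The median of the 19S cap in K-N against normal was 0.51 with 3024l alone (0.37 to 0.51 with an array left out), and in E-J against K-N it ranged from -0.31 (without FS21) to -0.074. PSMB8 minus PSMB5 changed sign to -0.054 after quantile normalization, -0.16 with 50 added, -0.33 with the floor and -0.060 with 3024r alone (-0.22 to 0.21 with an array left out).

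Differences near 0 in lymphoma against normal changed sign for genes that did not pass. PSMB5 was 0.022 with the floor, 0.0051 with linear means and 0.0087 with the brightest probe set. PSMB8 was 0.059 and 0.091 in these last 2. PSMA2 was 0.015 after quantile normalization, 0.067 after median centring, 0.061 with 50 added, 0.17 with the floor, 0.26 with linear means, 0.29 with the brightest probe set and 0.14 with 3024l alone. PSME4 was 0.030 after quantile normalization, 0.092 after median centring, 0.095 with linear means, 0.22 with the brightest probe set and 0.063 with 3024l alone. With the brightest probe set PSMD7 was -0.012 and PSMD10 -0.16. PSMD13 was -0.10 after quantile normalization and -0.068 with 3024r alone, PSMD9 -0.29 with 3024r alone and PSMD3 0.0020 with 3024l alone. With an array left out the ranges were -0.19 to 0.14 (PSMA2), -0.090 to 0.26 (PSMB6), -0.48 to 0.0020 (PSMD3), -0.29 to 0.62 (PSMD9), -0.068 to 0.13 (PSMD13) and -0.068 to 0.063 (PSME4). The causes were not tested.

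The pair of PSMB10 and PSMB7 was not run, because no probe set carries PSMB7 alone, and the dog as a random block was not run, because only 1 dog has 2 arrays. No paired analysis was possible because the groups compared share no dogs. Probe sets at 100 on at most 4 of 14 arrays enter the values of PSMB5, PSMA5, PSMC4 and PSMC6.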
